A study of Mus musculus with 1 sample.

Results

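Interleukin and interleukin receptor genes were examined in 1 RNA-seq library of cultured mixed glia. The cells came from the ventral midbrain (VM) of ICR(CD-1) mice, an outbred strain, taken 5 days after birth. Members were all rows whose gene symbol opens with "Il" followed by a digit, and 83 of 23282 rows met this rule. The library was labelled as a control, and its value column names the vehicle DMSO. The study compared such glia with cultures given an inhibitor of serum/glucocorticoid related kinase 1 (SGK1), which were not analysed here. With 1 library there was no replicate and no test, so no value carries an error between cultures, and the order of genes with close values cannot be settled.

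Interleukins are secreted proteins through which immune and tissue cells signal to each other. Most act through receptors built from several chains, and some chains can also be supplied in soluble form or by a neighbouring cell. A few chains are shared widely, among them gp130, the common gamma chain and the IL-1 receptor accessory protein. In the brain, microglia are a known source of IL-1 cytokines, and astrocytes and microglia both carry interleukin receptors.

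The rule gathers genes with different roles. The letter r after the number placed 41 members with the receptors and 42 with the ligands, but a few symbols go against it. Il6st encodes the signalling chain gp130 although its symbol lacks that letter, and Il1rn encodes a secreted antagonist although its symbol has it. By role there were 37 ligands, 36 receptor chains and 6 antagonists, decoy receptors or binding proteins. The other 4 are neither interleukins nor interleukin receptors. They were Il4i1 (a secreted amino acid oxidase), Il1bos (an antisense transcript) and Il1rapl1 and Il1rapl2 (synaptic adhesion proteins).

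The values were whole-number normalized read counts (RC), summing to 27569507 over all rows. The number of reads behind them is unknown, so no counting interval or detection floor is given. A gene at an RC of 10 or more was called detected, which held for 67.2% of all rows. Levels of different genes are compared as RC per kilobase (kb) of annotated exon, whose median over detected genes was 103.

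Interleukin receptors were detected more often than interleukins. Of 36 receptor chains 26 were detected, or 72.2%, close to the 67.2% of all rows. Of 37 ligands 15 were detected, or 40.5%. The median RC was 110 over all receptor chains and 5 over all ligands, beside 119 over all rows. RC and the minimum of 10 are not scaled for exon length. Per kb of exon the medians were closer, at 19.0 for receptor chains and 3.48 for ligands. Receptor chains held 86.1% of the members' summed RC and ligands 10.5%. All members together held 0.0872% of the library's sum. Of the 83 members, 46 were detected, 18 were at an RC of 1 to 9 and 19 were listed at 0. An RC of 1 or more was reached by 64 members, beside 78.2% of all rows, and 3 or more by 62, beside 73.9%. An RC of 100 or more was reached by 29 members, beside 51.6% of all rows, of which 8 were ligands and 19 receptor chains. The 5 members at 1000 or more, beside 21.5% of all rows, were all receptor chains: Il4ra, Il10rb, Il11ra1, Il6st and Il10ra. Only 14 members lay above the median RC of detected genes, 469, a level that 33.6% of all rows exceeded.

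**Figure D1:**
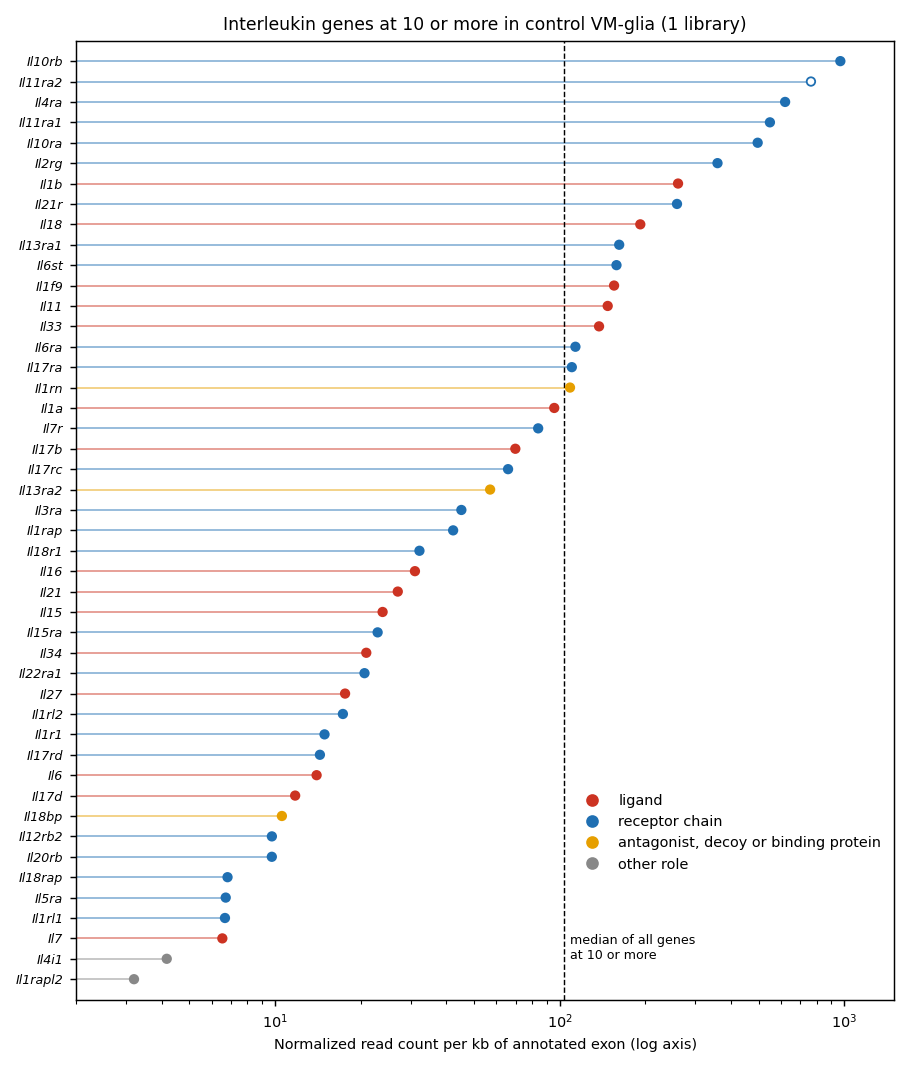
Normalized read count per kb of annotated exon (log axis) of the 46 members with an RC of 10 or more, 1 point per gene in 1 control library and coloured by role. The dashed line is the median of all detected genes (103), and receptor chains fill the first 6 places, led by Il10rb at 969. The open point is Il11ra2, whose annotated model holds coding sequence only.

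**Figure D2:**
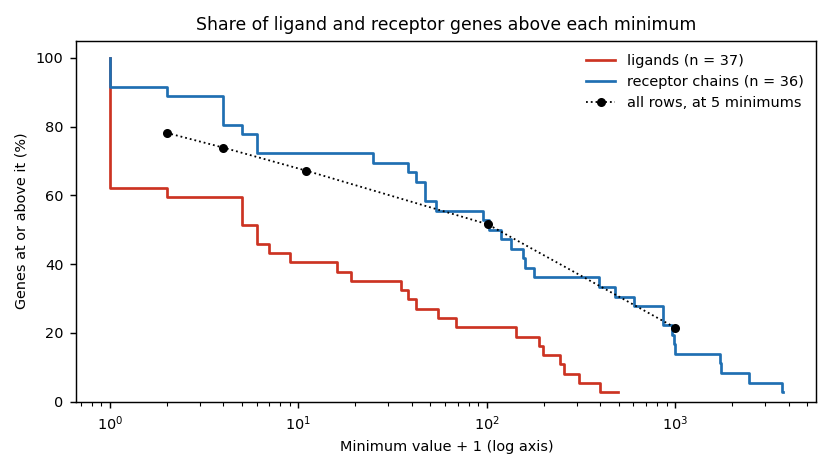
Share of genes (%) at or above each minimum RC (plotted as minimum + 1, log axis) for 37 ligands, 36 receptor chains and all rows. At a minimum of 10 the curves stand at 40.5% for ligands and 72.2% for receptor chains, and no ligand exceeded an RC of 497.

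For comparison, 27 of 43 chemokine ligands (62.8%) and 9 of 16 TNF superfamily ligands (56.25%) were detected, beside 67.2% of all rows. Among receptors the counts were 11 of 23 for chemokines (47.8%) and 22 of 25 for the TNF receptor superfamily (88%). These families were chosen by symbol and the differences from the interleukins were not tested.

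The IL-1 family supplied the highest ligands, Il1b and Il33 by RC and Il1b and Il18 per kb. Il11, from outside this family, was at an RC of 307, or 148 per kb, above Il1a on both scales. Il1b, the inflammatory cytokine that caspase-1 matures, was at an RC of 497, or 261 per kb, the highest per-kb level of any ligand. Il18, which is matured by the same protease, was at an RC of 198, or 192 per kb. Il1a, an alarmin that needs no such cleavage, was at an RC of 189, or 95.7 per kb. Per kb, Il1b was 2.72 times Il1a.

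Il33, a nuclear alarmin that glia and stromal cells are known to make, was at an RC of 397, or 138 per kb. Il1f9, which encodes IL-36 gamma, was at an RC of 256, or 155 per kb. The genes for the related IL-36 alpha (Il1f6), IL-36 beta (Il1f8) and IL-38 (Il1f10) were each listed at 0. Thus 5 of 8 IL-1 family ligands were detected, all at an RC of 100 or more.

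The natural brakes of this family were uneven. Il1rn, the IL-1 receptor antagonist, was at an RC of 602, above that of every ligand. Its level per kb was 109, which is 0.417 times that of Il1b and 1.14 times that of Il1a. With the longest transcript in place of all exons, these ratios were 0.643 and 2.46. Il18bp, the soluble trap for IL-18, was at an RC of 32, and Il18 was 18.2 times higher per kb. The decoy receptor Il1r2 was at an RC of 5, and the IL-36 receptor antagonist Il1f5 was listed at 0. Exons of Il18bp overlap Numa1, which was at 4656, on the opposite strand.

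All 6 signalling chains of the family were detected. Per kb of exon they lay under the detected ligands, but with the longest transcript in place of all exons Il1rap was at 106 per kb, above Il1a at 95.7. Il1rap, the accessory protein shared by the receptors for IL-1, IL-33 and IL-36, was at an RC of 480, or 42.3 per kb. Il1r1, which binds IL-1 itself, was at an RC of 95, or 14.9 per kb. Il1rl2, the IL-36 receptor, was at an RC of 118, or 17.3 per kb. Il1rl1, the IL-33 receptor also called ST2, was at an RC of 46, or 6.67 per kb. The IL-18 receptor had Il18r1 at an RC of 155, or 32.2 per kb, and Il18rap at 46, or 6.81 per kb. The accessory chain was thus 2.83 times Il1r1 per kb and 6.33 times Il1rl1. With the longest transcripts these ratios were 6.50 and 12.2.

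The promoters of several ligands and of the receptor chain Il4ra are shown. Il1b and Il6 are textbook targets of the NFκB pathway that the study examined. A TATA box was more frequent near ligand starts, and the Il4ra window holds a κB match. RefSeq promoter windows on GRCm38.p6, from 250 bases before to 50 bases after an annotated start, were matched for 66 of 83 members, some with several starts (81 windows). The TATA box was searched on both strands as TATAAA. The AP-1 motif was searched as TGANTCA. For C/EBP the letters were TTGCNNAA, for STAT they were TTCNNNGAA, and the κB consensus was searched as GGGRNWYYCC. Here N is any base, R is A or G, W is A or T and Y is C or T. Capitals mark any match. The κB consensus can overlap TTCNNNGAA. Which start was used in this library is unknown.
Il1b, chr2:129371090-129371389, minus strand: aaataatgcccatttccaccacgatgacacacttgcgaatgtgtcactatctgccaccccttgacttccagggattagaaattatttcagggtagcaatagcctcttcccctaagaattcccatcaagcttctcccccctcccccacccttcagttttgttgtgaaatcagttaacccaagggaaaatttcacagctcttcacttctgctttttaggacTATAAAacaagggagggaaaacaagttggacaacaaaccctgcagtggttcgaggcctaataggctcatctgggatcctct
Il1a, chr2:129309923-129310222, minus strand: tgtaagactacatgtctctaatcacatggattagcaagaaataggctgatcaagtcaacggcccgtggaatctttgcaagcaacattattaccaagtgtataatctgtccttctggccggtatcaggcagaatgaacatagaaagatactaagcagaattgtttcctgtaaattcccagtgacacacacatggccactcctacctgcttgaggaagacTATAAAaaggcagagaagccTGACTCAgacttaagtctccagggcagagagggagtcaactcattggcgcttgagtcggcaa
Il33, chr19:29945540-29945839, plus strand: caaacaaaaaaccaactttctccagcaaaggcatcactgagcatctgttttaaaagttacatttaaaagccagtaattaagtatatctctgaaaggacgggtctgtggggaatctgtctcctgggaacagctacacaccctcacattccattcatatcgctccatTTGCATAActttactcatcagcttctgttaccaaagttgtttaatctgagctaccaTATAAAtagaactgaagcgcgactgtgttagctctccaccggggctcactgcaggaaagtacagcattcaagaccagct
Il6, chr5:30012864-30013163, plus strand: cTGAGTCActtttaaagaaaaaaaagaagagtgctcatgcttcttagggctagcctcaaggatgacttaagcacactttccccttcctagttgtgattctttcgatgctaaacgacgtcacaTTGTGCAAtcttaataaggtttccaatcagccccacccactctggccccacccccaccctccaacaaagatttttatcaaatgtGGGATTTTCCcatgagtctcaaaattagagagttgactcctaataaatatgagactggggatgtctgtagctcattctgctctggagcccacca
Il4ra, chr7:125552021-125552320, plus strand: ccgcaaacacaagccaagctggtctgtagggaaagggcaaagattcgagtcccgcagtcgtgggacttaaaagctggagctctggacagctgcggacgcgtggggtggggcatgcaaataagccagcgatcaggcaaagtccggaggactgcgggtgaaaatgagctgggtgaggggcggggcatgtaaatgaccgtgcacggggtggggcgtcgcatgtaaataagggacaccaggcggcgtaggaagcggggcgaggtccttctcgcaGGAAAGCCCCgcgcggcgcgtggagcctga

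Counting the start as 0 and bases before it as negative, TATAAA begins at -31 in Il1b, -32 in Il1a and -29 at the second annotated start of Il33. Of 33 ligand windows, 7 held TATAAA on the gene's own strand between -40 and -20 (21.2%), in Il13, Il17a, Il17f, Il1a, Il1b, Il2 and Il33. Among the decoy receptors Il13ra2 held it too. None of 36 receptor chain windows did, and among all 32851 windows the share was 1.99%. Detected and undetected ligands both appear among the 7. Among the windows shown, the κB consensus was found in Il6, beginning at -44, and in Il4ra at 20. It was present in 7 of 81 member windows (8.64%), beside 4.51% of all windows. The others were windows of Il12rb2, Il16, Il19, Il1r1 and Il2ra, of which Il19 and Il2ra were each at an RC of 4. The other motifs were more frequent in member windows too. AP-1 was in 17.3% beside 7.81%, C/EBP in 18.5% beside 10.8% and STAT in 13.6% beside 8.30%. No such difference was tested. The κB consensus was not found in the Il1b window, which says only that these letters are not in these 300 bases.

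In the gp130 group, Il6st, Il6ra and Il11ra1 were above the median per-kb level of detected genes, and Il11 was above Il6. Il6st, which encodes gp130, was at an RC of 1758, or 158 per kb. Il6ra, the IL-6 binding chain, was at an RC of 982, or 114 per kb. Il6 itself was at an RC of 34, or 14.0 per kb. Il11, a gp130 cytokine known from stromal cells, was at an RC of 307, or 148 per kb, which is 10.5 times Il6 per kb. Il11ra1, the IL-11 binding chain, was at an RC of 2450, or 548 per kb.

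Other ligands of gp130 receptors were also detected. Lif was at 711, Cntf at 314, Clcf1 at 817, Osm at 103 and Ctf1 at 66. Their partner chains were Lifr, at an RC of 295, and Osmr at 760.

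Il11ra2, a duplicate of Il11ra1 on chromosome 4, was listed at an RC of 992, but its value is uncertain as well. The coding sequences of Il11ra1 and Il11ra2 are each 1296 bases long without the stop codon and differ at 13 bases (99.0% identity). Of the stretches of 50 bases in the Il11ra2 coding sequence, 59.2% also occur in that of Il11ra1. The coding sequence of Il11ra2 is identical to that of Gm13305, which was listed at 0. Reads inside these identical stretches cannot be assigned by sequence, and the read length and the treatment of multi-mapped reads were not stated. The stretch within 1 exon of GRCm38 that holds the most differences is shown for both genes, with the differing bases in capitals.
Il11ra1, chr4:41766111-41766170, plus strand: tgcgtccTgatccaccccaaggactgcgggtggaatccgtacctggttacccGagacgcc
Il11ra2, chr4:42659305-42659364, minus strand: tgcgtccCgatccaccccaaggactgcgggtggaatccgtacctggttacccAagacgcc

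Within these 60 bases only 2 differ, which shows how few positions can tell reads of the copies apart. Exons of Il11ra1 also overlap Ccl27a, at an RC of 216, on the opposite strand.

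The IL-12 branch of the same family was low throughout, with most members under the minimum. Il12a was listed at 0, Il12b was at 5 and Il23a, the IL-23 subunit, was at 8. Among the receptors, Il12rb1, which IL-12 and IL-23 share, was at 3 and Il23r at 5. Il12rb2 was at 37, but its exons overlap Serbp1, which was at 17334, on the opposite strand. Il27 was at 18 and its partner subunit Ebi3 at 568, while the receptor chain Il27ra was at 1. Exons of Il27 overlap Apobr, at an RC of 1775, on the opposite strand. Il31 and Il31ra were both listed at 0.

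The common gamma chain group centred on IL-4 and IL-21 receptors. Il4ra, which serves IL-4 and IL-13, was at an RC of 3719, the highest of all members and above 91.5% of detected genes. Its level was 620 per kb. Il2rg, the common gamma chain itself, was at an RC of 856, or 359 per kb. Il13ra1, which pairs with Il4ra to bind IL-4 and IL-13, was at an RC of 601, or 162 per kb. Il13ra2, a decoy for IL-13, was at an RC of 130, and Il13ra1 was 2.84 times higher per kb. Of the cytokines that bind Il4ra and Il13ra1, Il4 was listed at 0 and Il13 was at 4.

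Il21r was at an RC of 859, or 258 per kb. Its ligand Il21, a cytokine best known from T cells, was at an RC of 142, or 27.0 per kb. With the longest transcript in place of all exons the Il21 level was 46.2 per kb. Its exons overlap the antisense gene Gm12534, so without strand information these reads cannot be told apart from reads of that gene. Il7r was at an RC of 392 and its ligand Il7 at 37.

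Within this group the receptors for IL-2, IL-9 and IL-15 were incomplete. Il2ra was at 4 and Il2rb, which IL-2 and IL-15 share, was at 3. Il15 was at an RC of 54 and Il15ra, which presents IL-15 to neighbouring cells, at 102. Il9r was listed at 0 and Il9 was at 1. Il2 was also listed at 0.

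Markers of lymphocytes and other cells were examined beside these genes, and 67.2% of all rows were detected. Of 6 T cell markers, 3 were detected, with Cd3d at 202, Cd247 at 89 and Lck at 66. The other 3 were not, with Cd3e and Cd3g each at 2 and Cd8a at 1. The summed RC of the list was 362. For B cells, NK cells and mast cells the summed RC was 25, 14 and 22, and for epithelial cells it was 6. By contrast, all 6 microglial markers (summed RC 71530), all 6 astrocyte markers (34315) and all 6 mesenchymal markers (30341) were detected. Oligodendrocyte markers summed to 11836, neuronal to 3914, endothelial to 195 and neutrophil to 142. Most of each of these sums came from 1 gene: Mbp at 10966, Stmn2 at 3802, Kdr at 119 and S100a8 at 129. The other markers of these lists were lower. All 4 oligodendrocyte markers were detected, with Olig1 at 687, Mog at 135 and Sox10 at 48. Of the neuronal markers, Snap25 was at 86, Rbfox3 at 20 and Syt1 at 6. Endothelial Cdh5 was at 43, Pecam1 at 33 and Tek at 0, and neutrophil Mpo was at 11 and S100a9 at 2. Which cells carried the interleukin transcripts was not tested, and in a bulk sample fewer cells of a type and less RNA per cell cannot be told apart.

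Chains for IL-3 and IL-5 differed in level. Il3ra was at an RC of 134, or 45.2 per kb, and Il5ra at 24, or 6.71 per kb. Csf2rb, the beta chain that both share with the GM-CSF receptor, was at an RC of 3863, 11.8 times Il3ra per kb. Il3, Il5 and Csf2 were each listed at 0. A near relative of the beta chain, Csf2rb2, was at 2175, and the GM-CSF binding chain Csf2ra was at 3991.

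In the IL-10 family both chains of the IL-10 receptor were high and no ligand was detected. Il10ra, which binds the anti-inflammatory cytokine IL-10, was at an RC of 1736, or 496 per kb. Il10rb, a chain shared with the IL-22 and lambda interferon receptors, was at an RC of 3689, or 969 per kb, the highest per-kb level of all members. Il10 was listed at 0. Il19 was at 4, and Il20, Il22 and Il24 were listed at 0. The other receptor chains were low, with Il22ra1 at 53, Il20rb at 41 and Il20ra at 3. The soluble IL-22 trap Il22ra2 was listed at 0. Il10rb shares 19.5% of the 50-base stretches of its longest transcript with other annotated genes, among them the overlapping same-strand gene Gm21970. For Il2rg the share was 42.0%, with Gm20489.

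For IL-17A and IL-17F, both receptor chains were detected and the cytokines were not. Il17ra, the chain common to these receptors, was at an RC of 956, or 110 per kb. Il17rc, its partner for IL-17A and IL-17F, was at an RC of 176, or 65.9 per kb. Il17rd, which is also known as Sef and dampens FGF signalling, was at an RC of 158. Il17rb was at 5 and Il17re was listed at 0. Il17a was listed at 0 and Il17f was at 6, while Il25 was at 5 and Il17c at 4. The less studied ligands Il17b and Il17d were at 68 and 15.

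Interleukins outside these families were Il34 and Il16. Il34 encodes a second ligand of the CSF1 receptor, on which microglia depend, and was at an RC of 41, or 20.9 per kb. The first ligand, Csf1, was at an RC of 2484 and was 22.5 times higher per kb. The receptor Csf1r was at an RC of 31413. Il16, whose precursor is known as a scaffold protein as well as a CD4 ligand, was at an RC of 244, and its exons overlap Stard5, at 568, on the opposite strand. The CD4 gene Cd4 was at 40.

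Ligands and receptors were then joined into 33 cytokine and receptor combinations of known composition, with IL-4 entered for its type I and type II receptors. IL-20 and IL-24 can each use Il20rb with either Il20ra or Il22ra1, and IL-20 was entered with Il20ra and IL-24 with Il22ra1. A receptor was called complete when each of its chains was at an RC of 10 or more. This held for 22 of 33, and for 23 of 35 when IL-20 and IL-24 were each entered with both receptors. In 10 of these the ligand was detected as well, for IL-1A, IL-1B, IL-18, IL-33, IL-36G, IL-7, IL-21, IL-6, IL-11 and IL-34. In the other 12 the ligand was under the minimum, for IL-36A, IL-36B, IL-4 with both receptors, IL-13, IL-3, IL-5, IL-10, IL-22, IL-24, IL-17A and IL-17F.

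The 11 incomplete receptors mostly lacked a single chain. Exactly 1 chain was under the minimum in 9 of them, and every chain in 1, the IL-23 receptor. The IL-2 receptor lacked both Il2ra and Il2rb. Among the combinations entered, the ligand was detected and the receptor incomplete for IL-15 and IL-27, through Il2rb and Il27ra. The detected ligands Il16, Il17b and Il17d were not entered in any combination. Combinations share chains and are not independent of each other. At a minimum of 100, 15 receptors were complete and 3 had their ligand as well, those of IL-36G, IL-21 and IL-11.

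**Figure D3:**
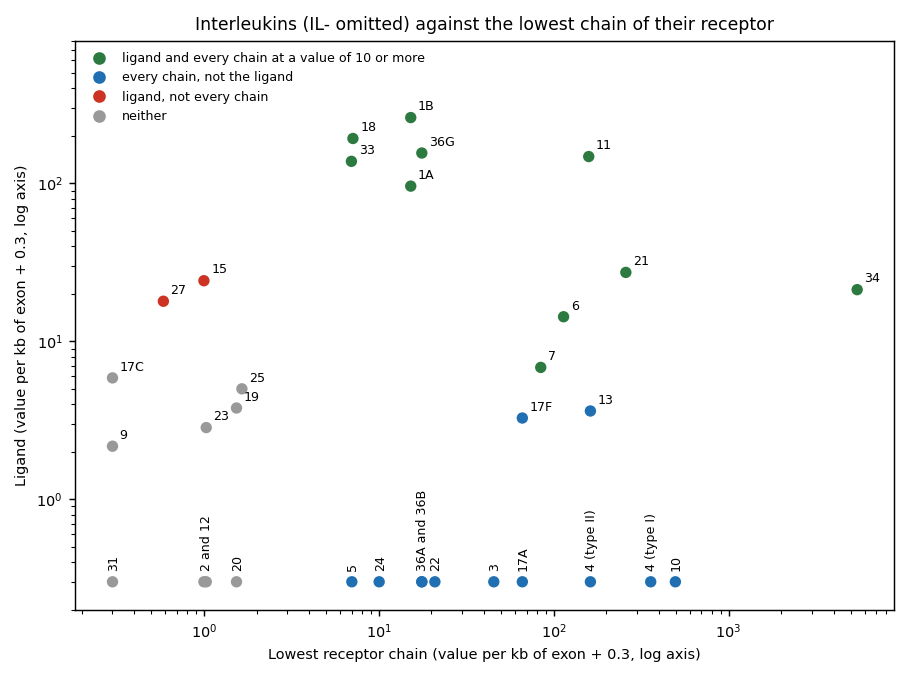
Each of 33 cytokine and receptor combinations plotted by its ligand and by the lowest chain of its receptor, both as RC per kb of exon + 0.3 on log axes, with heterodimers entered at their lower subunit. IL-1 family ligands (1A, 1B, 18, 33, 36G) sit high on the ligand axis with lowest chains from 6.67 to 17.3. IL-11 lies among them on that axis, with its lowest chain at 158. IL-10 and IL-4 lie at the floor of the ligand axis with lowest chains at 496 and from 162 to 359.

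Some members, a minority of the 83, lie in clusters, and the levels within a cluster were set side by side. Genes at most 500 kb from the next member were joined, which gave 5 clusters of 3 or more. On chromosome 2, from 24153161 to 24351494, lie Il1f8, Il1f9, Il1f6, Il1f5, Il1f10 and Il1rn in that order, all on the plus strand. Here 2 of 6 genes were detected, Il1f9 and Il1rn, and the other 4 were listed at 0. A second cluster of chromosome 2, from 129299610 to 129375748, holds Il1a, Il1b and the antisense transcript Il1bos, which was at 8.

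On chromosome 1, the IL-1 receptor cluster spans 40074079 to 40551705. It held 5 detected genes of 6, at an RC from 46 to 155, and the decoy Il1r2 at its edge was at 5. The IL-10 cluster on the same chromosome, from 130882074 to 131024974, holds Il24, Il20, Il19 and Il10, and none of its 4 genes was detected. None of Il4, Il13 and Il5 was detected in the cluster on chromosome 11, from 53602982 to 53725106.

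**Figure D4:**
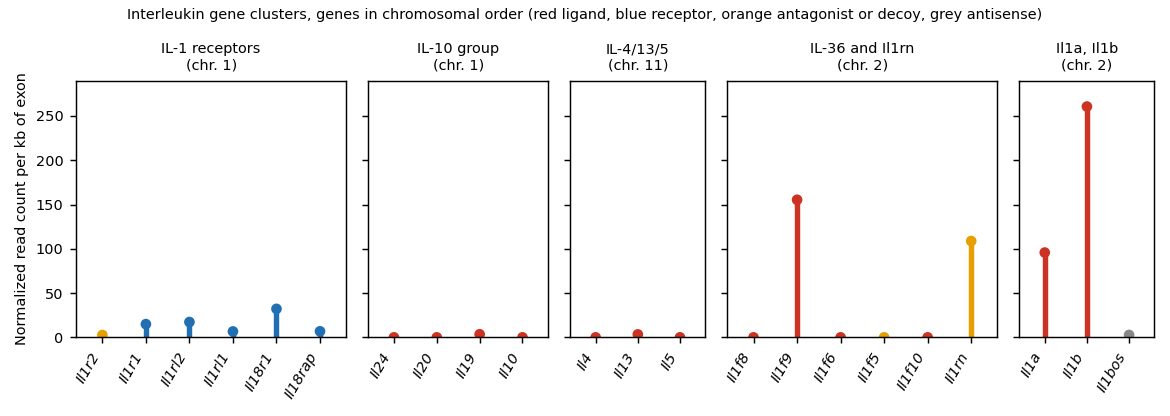
RC per kb of exon (linear axis from 0) for the members of 5 chromosomal clusters, genes in chromosomal order and coloured by role, 1 library. In the Il1rn cluster only Il1f9 (155) and Il1rn (109) rise from 0, and the IL-10 and IL-4 clusters lie near 0.

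Genes that pass the receptor signal on were mostly detected, as were 67.2% of all rows. All 8 adaptors of the IL-1 and IL-17 receptors on the list were detected, from Traf3ip2, the IL-17 receptor adaptor, at 137 to Irak1 at 1713. The shared adaptor Myd88 was at 946, and Irak3, an inhibitor of the pathway, at 620. Sigirr, an inhibitory receptor of the IL-1 family, was at 14. Of 14 JAK, STAT and feedback genes 13 were detected, and Stat4, which IL-12 uses, was listed at 0. Stat6, which IL-4 and IL-13 use, was at an RC of 4714, or 1071 per kb. Stat3, which IL-6, IL-10 and IL-21 use, was at 4146, or 435 per kb. The gamma chain kinase Jak3 was at 907 and the broadly used Jak1 at 4810. All 5 genes for processing and release of IL-1B and IL-18 were detected, from Casp4 at 501 to Nlrp3 at 1247.

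The members without an interleukin role were low, with Il4i1 at an RC of 17, Il1rapl2 at 15 and Il1rapl1 at 8.

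Exon overlaps limit some of these values. Of the 46 detected members, 18 overlap an exon of another annotated gene, 15 of them only on the opposite strand. For Il12rb2, Il18bp, Il27, Il16 and Il4i1 the overlapping gene had the higher value. For Il1a the overlapping Gm14023 was at 186, against 189 for Il1a itself. The strand setting of the counting was not stated, so reads of such genes cannot be told apart.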

How the data were processed

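RNA was taken from 1 control culture of VM-derived mixed glia. According to the study's methods, the authors trimmed bases with a quality under 20, mapped reads to GRCm38/mm10 with STAR and counted reads on exons of RefSeq Release 105 genes with HTSeq-count; the submitters' processing notes name TopHat and edgeR. The deposited score is the whole-number value that the authors call a normalized read count, made by scaling those counts in a way not given in the sources used here, like the strand setting and tool versions. No count model or interval was therefore applied. Another normalization would rescale RC and the detected counts.

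The table held 23238 symbols, of which 35 occurred in more than 1 row. All members had 1 row and matched GENCODE release M21 (GRCm38) by symbol, which gave coordinates, exon unions and overlaps. This is not the annotation the authors counted on. Sequence sharing was measured on the longest transcript in stretches of 50 bases. Roles, lists and receptor compositions were written by hand, and the members and lists were chosen with earlier results of these data known. All detected members were named, others by value or as listed at 0. Non-members were named from the fixed pathway and marker lists, apart from overlapping or duplicate genes, which were chosen after their values were seen. Scripts were tested on simulated data. Python 3.11.15, numpy 2.4.6, pandas 2.3.3, matplotlib 3.10.9 and Biopython 1.88 were used.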

Additional observations from a re-analysis of the deposited data

How the results depend on the processing

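With a minimum RC of 100 in place of 10, 29 members and 8 ligands were detected, and 3 ligands had a complete receptor. With a minimum of 1 there were 23 ligands, and 17 ligands with a complete receptor. A minimum of 3 gave 16. When every member with an exon overlap was counted as not detected, 28 members and 7 ligands remained, with 6 complete receptors and 1 ligand with a complete receptor; this setting removes shared chains such as Il1rap, Il2rg, Il4ra and Il10rb. When only members that overlap a gene of higher value were removed, a choice made after seeing the data, the counts were 41 members, 13 ligands, 22 complete receptors and 10 with their ligand. A value per kb of 10 or more, also added later, gave 18 and 7. Entering IL-20 and IL-24 with both of their receptors, added last, gave 23 and 10. Other counts stayed within 1.5 times. Levels per kb moved by more than 1.5 times with the longest transcript for 8 of 46 members: Il1rl2, Il1rap, Il15ra, Il1rn, Il21, Il11ra1, Il4i1 and Il20rb. No paired analysis was possible because only 1 library was analysed, and without a replicate no value can be set against a spread.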
